A study of Homo sapiens with 16 samples.

Results

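The transcripts described here are 35 genes of the ATF4 and integrated stress response programme, measured by total RNA sequencing in LNCaP, an established human prostate cancer cell line. The genes were chosen by name as factors and targets linked to ATF4, with earlier results of these data known. The list is therefore not independent of the data. Their Ensembl identifiers were looked up in the count files, which list 60676 genes. All 35 were found, and all 35 passed the filter on low counts, which left 21810 genes for the tests. They comprise 7 transcription factors, 6 feedback and stress effectors, 6 serine and folate enzymes, 4 enzymes of asparagine, phosphoenolpyruvate and transsulfuration metabolism, 5 amino acid transporter genes, 6 tRNA synthetases and the tRNA exporter gene XPOT.

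Cells were unedited LNCaP (WT) or LNCaP with a CRISPR-Cas9 double knockout of RB and p53 (DKO), tumour suppressors that restrain the cell cycle. The labels do not say whether the DKO cells were a clone or a pool. Both lines were kept for 6 days in DMSO, the solvent, or in 50 µM enzalutamide (EZ), a drug used against prostate cancer, and each of the 4 groups held 4 numbered replicates, giving 16 libraries. The labels do not say that replicates came from separate cultures, so p-values measure only how far these samples spread, and some of that may be technical.

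The integrated stress response begins when kinases that sense unfolded proteins, amino acid shortage, haem shortage or double-stranded RNA phosphorylate the translation factor eIF2. General protein synthesis then slows, while the ATF4 mRNA is translated more through its upstream open reading frames, so that much of the control of ATF4 is not visible at the RNA level. ATF4 protein pairs with other bZIP factors on C/EBP-ATF response elements and raises genes for amino acid uptake, serine and one-carbon metabolism and tRNA charging, together with DDIT3 (CHOP) and feedback genes.

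The core of that element, TGATGCAA, was looked for on both strands of RefSeq promoter windows (GRCh38.p14, 250 bases before to 50 after an annotated start). Some genes have several windows. By gene, it was in at least 1 window of 7 of the 30 members with an entry (23.3%), against 1.08% of all 27305 genes. By window, it was in 7 of 50 member windows (14%), against 0.866% of all 35116 windows. A looser core, TGATGNAA, which includes the first, was present for 11 of the 30 members (36.7%), against 4.46% of all genes, and in 11 of the 50 windows (22%), against 3.62% of all windows. The exact core was found for CEBPG, CHAC1, SLC1A4, SLC1A5, AARS1, NARS1 and MARS1, and the looser core also for ATF3, ASNS, SLC3A2 and GARS1. NUPR1, PSPH, SHMT2, ALDH1L2 and SLC7A11 had no entry. Of the members past a threshold below in the fit of all 16 libraries without a replicate block, SLC1A4, GARS1 and NARS1 hold a match. A match describes the letters and is not evidence of binding. Stretches of 7 promoters are shown so that the element can be seen in its setting, each printed 5′ to 3′ along the gene with the matching letters in capitals; TTGCATCA is the exact core on the opposite strand.
SLC1A4 (chr2:64989300-64989399, plus strand): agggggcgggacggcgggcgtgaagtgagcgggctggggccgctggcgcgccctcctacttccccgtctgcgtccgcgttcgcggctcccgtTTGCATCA
SLC1A5 (chr19:46784858-46784957, minus strand): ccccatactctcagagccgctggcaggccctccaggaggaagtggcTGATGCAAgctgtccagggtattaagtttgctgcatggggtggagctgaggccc
CHAC1 (chr15:40953221-40953320, plus strand): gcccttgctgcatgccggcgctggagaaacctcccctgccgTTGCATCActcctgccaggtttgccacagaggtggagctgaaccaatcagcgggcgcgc
CEBPG (chr19:33374013-33374112, plus strand): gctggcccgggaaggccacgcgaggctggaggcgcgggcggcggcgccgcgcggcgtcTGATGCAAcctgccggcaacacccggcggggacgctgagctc
AARS1 (chr16:70289640-70289739, minus strand): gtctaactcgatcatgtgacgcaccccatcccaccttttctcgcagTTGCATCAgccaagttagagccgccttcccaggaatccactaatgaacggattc
ASNS (chr7:97872423-97872522, minus strand): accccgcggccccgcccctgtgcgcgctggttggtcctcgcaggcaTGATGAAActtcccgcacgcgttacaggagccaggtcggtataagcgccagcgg
ATF3 (chr1:212565170-212565269, plus strand): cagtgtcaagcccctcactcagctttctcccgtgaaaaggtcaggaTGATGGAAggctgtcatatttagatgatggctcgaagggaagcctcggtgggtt
The first 5 carry the exact core and the last 2 the looser one. In SLC1A4 the match begins 7 bases before the annotated start of its own window, in CEBPG 42, in ASNS 68, in SLC1A5 97, in AARS1 187, in ATF3 191 and in CHAC1 209. The SLC1A5 window with the match (chr19:46784765-46785064) lies inside the gene, whose 5′ end is at 46788594. Its window at that end (chr19:46788545-46788844) holds no match. The printed stretches of SLC1A4, CEBPG, CHAC1 and ASNS also lie inside their annotated genes. The 5′ ends of these genes are at 64988477, 33373330, 40952962 and 97872542. SLC1A4, SLC1A5, CEBPG, ASNS and ATF3 also have entries for other annotated starts, none of which holds a match.

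Libraries held 11823438 to 47678648 counts. Levels below are CPM, counts scaled to a common library size after trimmed-mean (TMM) adjustment. The RB1 transcript stood at 95.6 to 127.6 CPM in the 8 WT libraries and at 9.04 to 13.4 CPM in the 8 DKO libraries. Of the prostate luminal markers, FOLH1 stood at 508 CPM or more and HOXB13 at 133 CPM or more in every library. Others reached low levels: over the 16 libraries KLK3 ranged from 0.719 to 83.4 CPM and KLK2 from 2.04 to 174.5 CPM. SLC45A3 ranged from 22.3 to 209 CPM and TMPRSS2 from 23.1 to 676 CPM. In the fit of all 16 libraries (edgeR, adjusted p under 0.05) 6 of the 10 luminal markers were lower in DKO than in WT in DMSO and 7 of 10 in EZ, with medians of −0.84 and −0.99, while 0 passed for the drug in either genotype (2 had an unadjusted p under 0.05 in WT and 3 in DKO, and DESeq2 called 0 and 1). The lowest single estimate of a luminal marker for DKO against WT was −3.48 in DMSO and −4.07 in EZ. The part of the luminal markers in the genotype results below was not tested. Leukocyte markers reached 0.505 CPM at most, with CD3E at 0 counts in all 16 libraries, and endothelial markers 0.455 CPM at most; of the fibroblast markers COL1A1 stood at 13.9 to 43.7 CPM, LUM reached 6.00 CPM and PDGFRB 4.26 CPM, and COL1A2, DCN and PDGFRA stayed at or under 0.158 CPM. Of the 3 fibroblast markers tested, 2 were higher and 0 lower in DKO than in WT in DMSO, and likewise in EZ (edgeR, adjusted p under 0.05). DESeq2 called 3 higher in DMSO and 2 in EZ. For the drug 0 passed in either genotype (0 had an unadjusted p under 0.05 in WT and 1 in DKO, and DESeq2 called 0). The part of the fibroblast markers in the genotype results below was not tested. In bulk RNA, fewer cells of a kind and less RNA per cell cannot be told apart.

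Levels between genes are compared per kilobase of annotated exon, as means of the WT DMSO libraries. PSAT1, the second enzyme of serine synthesis, was the highest member at 375 CPM per kb ± 106 (SD, n = 4). ATF4 followed at 193 ± 93.8, then the synthetase AARS1 at 159 ± 42.8, XPOT at 136 ± 31.1, GARS1 at 127.5 ± 31.9 and NARS1 at 118 ± 31.8. From ATF4 down, each of these lay within an SD of its neighbour. At the low end stood ALDH1L2 at 1.41 CPM per kb ± 0.428, CBS at 2.14 ± 0.706, ASNS at 2.21 ± 0.597 and VLDLR at 2.69 ± 0.772. ASNS, asparagine synthetase and a standard marker of the response, drew 2959 counts over the 16 libraries, while its pseudogene ASNSP1 drew 6133, and 44.6% of its annotated exon bases are shared with another transcript on the same strand. Its level is therefore uncertain.

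Other members share sequence with neighbours as well, and the strand setting of the counting is not given in the sources used here. DDIT3 shares 27.2% of its exon bases with MARS1 on the opposite strand, and ATF5 shares 21.2% with NUP62. ALDH1L2 shares 1.7% with C12orf45, which had 10.6 times its counts on average. For these genes reads of the 2 strands cannot be told apart. PSPH has a pseudogene, PSPHP1, with 4.05% of its counts, and CBS has a near-identical annotated copy, so its values are uncertain.

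The members varied together from library to library, also within a group. Among the 4 WT DMSO libraries, replicate 4 held the highest level for 32 of 35 members, where it did so for 32.7% of all tested genes. In DKO DMSO, replicate 4 was highest for 33 of 35 (37.4% of all genes). In WT EZ, replicate 1 was highest for 27 of 35 (29.3% of all genes), and in DKO EZ replicate 1 for 20 (33.7% of all genes) and replicate 4 for 13 (33.7%). Over all 16 libraries, WT DMSO replicate 4 held the highest level of 26 members.

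Cell division genes moved the other way in these libraries. The mean log2 CPM of 16 mitosis markers was 3.87 in WT DMSO replicate 4, against 5.50 to 6.25 in the other 3, and 5.38 in DKO DMSO replicate 4, against 6.42 to 6.56. It was 3.32 in WT EZ replicate 1, against 5.34 to 5.40, and 4.07 in DKO EZ replicate 1, against 5.46 to 5.90. In each group the library lowest in mitosis markers was thus the one highest in the largest number of members. Between groups, in the fit of all 16 libraries, 0 of the 16 mitosis markers passed the test in any comparison (edgeR; 0 had an unadjusted p under 0.05 for the drug in either genotype and 1 did in each genotype comparison, and DESeq2 called 1, higher in DKO DMSO). Without replicate numbers 1 and 4 of every group, 13 were lower with EZ in DKO and 1 in WT, 14 were higher in DKO DMSO, and in DKO EZ 12 were higher and 1 lower. Without the library lowest in mitosis markers of each group, 12 were lower with EZ in DKO and 2 in WT, 11 were higher and 1 lower in DKO DMSO, and in DKO EZ 4 were higher and 1 lower. In the fit of all 16 libraries their median log2 difference was −0.51 for EZ in WT, −0.87 for EZ in DKO, 0.83 for DKO against WT in DMSO and 0.44 in EZ. The part of this in the results below was not tested, and counts are given with and without these libraries.

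**Figure D1:**
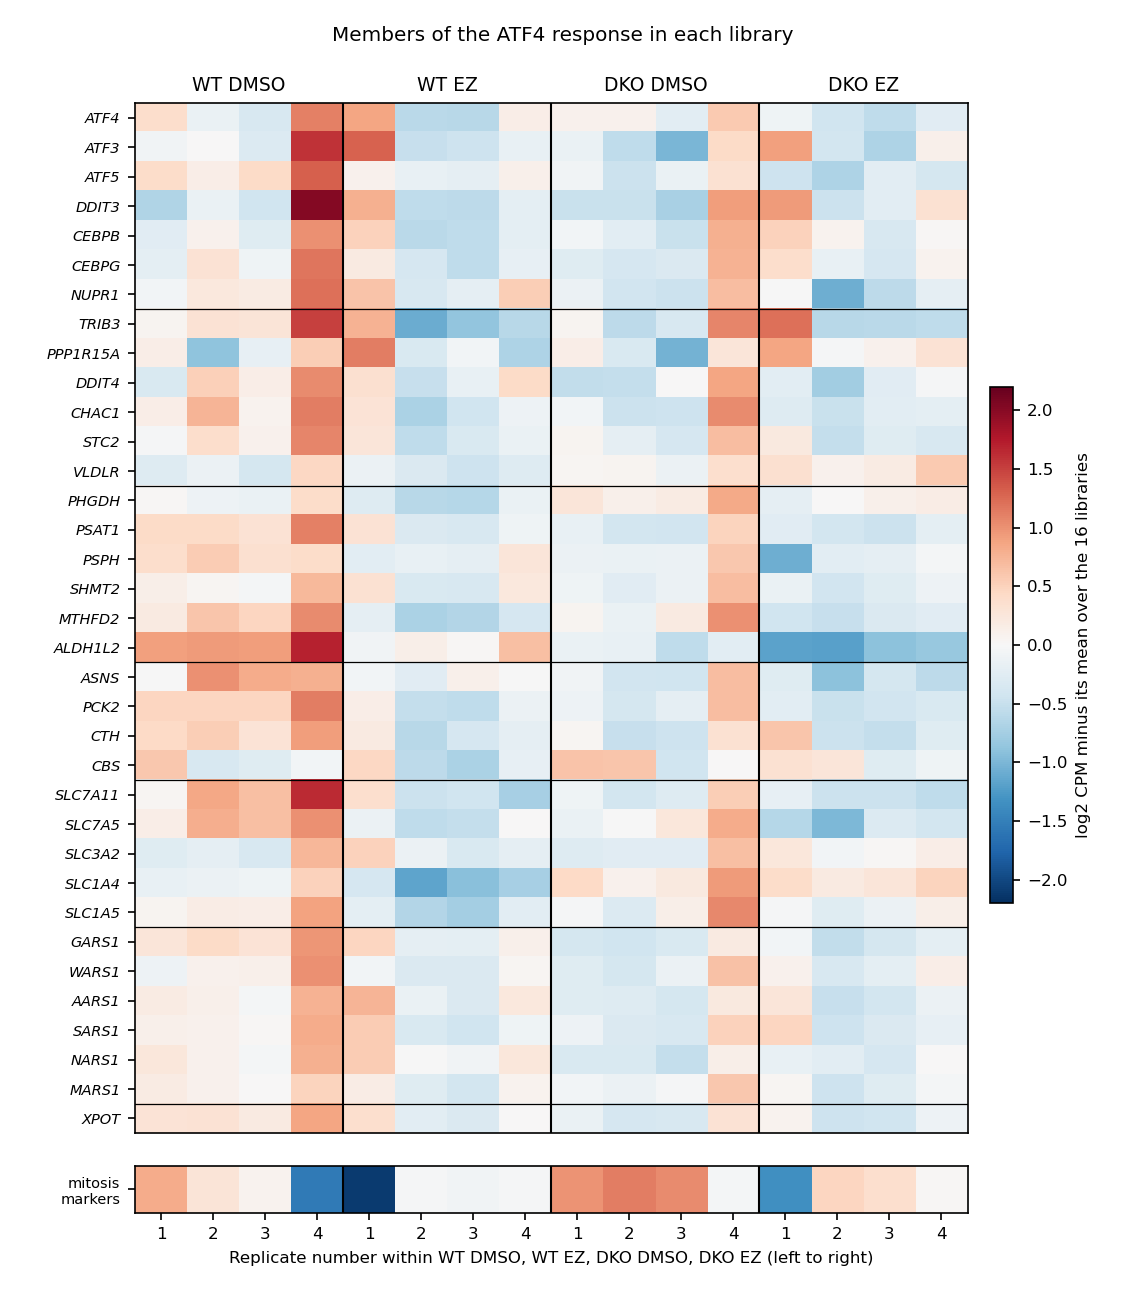
Each row is a member, ordered by role, and each column a library; colour gives log2 CPM minus the gene's mean over the 16 libraries, and the strip below gives the mean log2 CPM of the 16 mitosis markers treated likewise. The red columns of replicate 4 in both DMSO groups and of replicate 1 in WT EZ stand over blue or pale cells of the mitosis strip.

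In WT cells, in the fit without pairs, the drug lowered 6 of 35 members and raised 0 at an adjusted p under 0.05. The test was edgeR quasi-likelihood with Benjamini-Hochberg adjustment over all 21810 genes, of which 1.07% were lower and 2.25% higher. A fit with pairs follows below. The 6 were MTHFD2 and ALDH1L2 of mitochondrial folate metabolism, PCK2, and the transporter genes SLC7A11, SLC7A5 and SLC1A4. The median log2 fold change of the 35 was −0.50, against −0.03 for all genes, and 34 of 35 estimates were below 0 (53.3% of all genes). Groups did not overlap for 10 of 35, all lower with EZ (3.81% of all genes).

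Same-numbered EZ and DMSO libraries of a genotype deviated together over all tested genes, so a further fit took the numbers as pairs. Unless another fit is named, fold changes, SEs and calls are from the fit without a block. Most members were highest in replicate 4 in WT DMSO but in replicate 1 in WT EZ. With the replicate number as a block within each genotype, 12 members were lower in WT (4.44% of all genes), namely MTHFD2, ALDH1L2, PHGDH, PSAT1, PSPH, PCK2, CTH, SLC7A5, SLC1A4, SLC1A5, ATF5 and XPOT; SLC7A11 was no longer past the threshold. Pairs differed in size: the median log2 ratio of EZ over DMSO was 0.15 in pair 1 with 14 of 35 members lower, −0.63 in pair 2 with 33 lower, −0.47 in pair 3 with 33 lower and −0.996 in pair 4 with 35 lower. Members lower in all 4 pairs numbered 14 (15.4% of all genes).

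Left out as alternatives chosen after seeing the data, the libraries that stood apart changed these counts. Without replicate number 4 of every group, 5 members were lower in WT (0.878% of all genes) and the median was −0.28. Without replicate numbers 1 and 4 of every group, which leaves 2 libraries per group, 23 were lower (3.06% of all genes) and the median was −0.54. Without the library lowest in mitosis markers of each group, 10 were lower (1.6% of all genes) and the median was −0.37. MTHFD2, PCK2, SLC7A5 and SLC1A5 were among the lower genes in each of these 3 fits, and no member was higher in any. Leaving out 1 library at a time, the count fell to 1 without WT DMSO replicate 2 or 4 or WT EZ replicate 2 or 3, to 2 without WT DMSO replicate 3 and to 3 without WT EZ replicate 4. Of these 16 fits, PCK2, SLC7A5 and SLC1A4 lost the threshold in 6 and ALDH1L2 in 5, each time without a WT library. Fits without a DKO library, which is not in this comparison, kept these 4 genes. Such fits count among the 30 alternatives given below. The share of all genes called with 1 library left out is not given.

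In DKO cells 0 of 35 members passed the threshold for the drug (0.445% of all genes lower and 1.03% higher by edgeR); 3 had an unadjusted p under 0.05, and DESeq2 called 1, SLC7A5, lower (1.21% of all genes). The median log2 fold change was −0.26, against 0.01 for all genes, and 27 of 35 estimates were below 0 (49.2% of all genes). Groups did not overlap for MTHFD2, ALDH1L2 and SLC7A5, all 3 lower with EZ (4.41% of all genes). With the replicate block within genotype, ALDH1L2 and SLC7A5 were lower (3.12% of all genes). The pair medians were 0.13, −0.08, −0.06 and −0.68, with 16, 22, 22 and 33 of 35 members lower, so that the largest shift lay in pair 4, whose DMSO library stood apart. Without replicate number 4 of every group the median was −0.02 and 0 members were called (0.469% of all genes lower); without the library lowest in mitosis markers of each group it was −0.06, again with 0 called (1.77% of all genes lower). Without replicate numbers 1 and 4 the median was −0.09 and 3 members, MTHFD2, SLC7A5 and ATF4, were lower (2.43% of all genes).

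Of the 6 serine and folate enzymes, 2 fell in WT with EZ, 5 with the replicate block, and their median log2 fold change was −0.59 in WT and −0.38 in DKO. MTHFD2, the mitochondrial methylenetetrahydrofolate dehydrogenase, stood at 204, 270.3, 247 and 367 CPM in WT DMSO replicates 1 to 4 and at 154, 109.8, 114 and 138 CPM in WT EZ. Every EZ library lay below every DMSO library, and the difference was −1.08 ± 0.22 (log2 fold change ± SE) with adjusted p = 0.0113 by edgeR. It was past the threshold in 30 of 30 alternative fits (adjusted p 1.79e-06 to 0.0469). In DKO, MTHFD2 stood at 186, 160.2, 205 and 355 CPM in DMSO and 131, 124, 142 and 150.4 CPM in EZ, again without overlap. That difference was −0.73 ± 0.22 with adjusted p = 0.113 by edgeR, and 0.0517 with the block (0.0218 to 0.25 over all alternatives).

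ALDH1L2, the mitochondrial 10-formyltetrahydrofolate dehydrogenase, was the lowest member per kilobase. It stood at 10.1, 10.4, 10.2 and 17.5 CPM in WT DMSO, 5.10, 5.92, 5.49 and 8.53 in WT EZ, 4.89, 4.80, 3.68 and 4.57 in DKO DMSO and 2.40, 2.37, 2.89 and 3.02 in DKO EZ. No library of a drug group overlapped its DMSO group, and no DKO library overlapped the WT group of the same treatment. The drug difference was −0.94 ± 0.21 in WT (edgeR, adjusted p = 0.0212; past the threshold in 22 of 30 alternatives, 0.00131 to 0.115). In DKO it was −0.73 ± 0.22, with adjusted p = 0.115, and 0.0125 with the replicate block (0.0125 to 0.281 over all alternatives).

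The 3 enzymes of serine synthesis itself did not pass in WT without the replicate block and did with it. PHGDH, which commits 3-phosphoglycerate to serine, stood at 616, 555, 543 and 799 CPM in WT DMSO and 495, 396, 391 and 543 in WT EZ, without overlap, and at 721, 654, 686 and 1067 in DKO DMSO and 523, 608, 653 and 673 in DKO EZ, with overlap. Its WT difference was −0.46 ± 0.17, with adjusted p = 0.17 by edgeR and 0.0137 with the block (0.00223 to 0.421 over all alternatives). PSAT1 stood at 721, 724, 669 and 1166 CPM in WT DMSO and 674, 431, 425 and 505 in WT EZ, where only the high replicate 1 of EZ reached the DMSO range. The PSAT1 difference was −0.69 ± 0.21, with adjusted p = 0.0936, and 0.0225 with the block (1.05e-04 to 0.263 over all alternatives). In DKO, PSAT1 stood at 481, 409, 403 and 756 CPM in DMSO and 451, 409.6, 388 and 467 in EZ (−0.26 ± 0.21, adjusted p = 0.694 by edgeR).

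PSPH, the phosphatase of the last step to serine, stood at 98.6, 112, 96.8 and 101 CPM in WT DMSO and 64.3, 67.5, 66.5 and 91.0 in WT EZ, without overlap. That was −0.50 ± 0.20, with adjusted p = 0.225 by edgeR and 0.0423 with the block (4.45e-04 to 0.51 over all alternatives). DKO libraries held 69.2, 68.1, 69.4 and 114 CPM of PSPH in DMSO and 36.0, 64.8, 66.0 and 73.7 in EZ, with overlap through EZ replicate 4. The mitochondrial serine hydroxymethyltransferase SHMT2 did not pass in either genotype in the fit of all 16 libraries (−0.24 ± 0.22 in WT and −0.33 ± 0.22 in DKO), with 309.7 to 525 CPM in WT DMSO and 248 to 403 in WT EZ.

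Of the 4 enzymes of asparagine, phosphoenolpyruvate and transsulfuration metabolism, PCK2 fell in WT, CTH also with the block, and the median was −0.77 in WT and −0.31 in DKO. PCK2, the mitochondrial phosphoenolpyruvate carboxykinase, stood at 303, 299.8, 303 and 476 CPM in WT DMSO and at 242, 150.4, 148 and 199 CPM in WT EZ, without overlap. The PCK2 difference was −0.90 ± 0.22 by edgeR (adjusted p = 0.0316; past the threshold in 22 of 30 alternatives, 1.24e-06 to 0.114). It lost the threshold in 6 of the 16 fits that left out 1 library, each time a WT library. In DKO, PCK2 stood at 200, 167, 189.9 and 347 CPM in DMSO and 186, 155, 162 and 172 in EZ (−0.42 ± 0.22, adjusted p = 0.436). CTH, cystathionine gamma-lyase of cysteine synthesis, stood at 25.2, 26.8, 22.9 and 35.05 CPM in WT DMSO and 21.2, 12.2, 14.3 and 16.1 in WT EZ, without overlap. Its difference was −0.79 ± 0.26, with adjusted p = 0.11 by edgeR and 0.0196 with the block (3.53e-04 to 0.288 over all alternatives). DKO libraries held 19.1, 13.0, 13.5 and 23.5 CPM of CTH in DMSO and 28.3, 13.4, 12.9 and 15.4 in EZ, which overlapped. ASNS stood at 6.01, 12.2, 10.7 and 10.5 CPM in WT DMSO, 5.82, 5.08, 6.53 and 5.99 in WT EZ, 5.73, 4.54, 4.47 and 9.69 in DKO DMSO and 5.03, 3.23, 4.63 and 4.07 in DKO EZ. Only WT EZ replicate 3 reached the range of WT DMSO, through its low replicate 1, and the difference was −0.75 ± 0.26, with adjusted p = 0.132 by edgeR and 0.0532 with the block. CBS, which makes cystathionine, did not pass in either genotype (−0.20 ± 0.29 in WT and −0.19 ± 0.28 in DKO).

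Of the 5 transporter genes, 3 fell in WT with EZ and also 3 with the block, 2 of them shared, and their median was −0.82 in WT and −0.38 in DKO. SLC7A5, the large neutral amino acid exchanger LAT1, stood at 12.9, 20.4, 18.4 and 23.6 CPM in WT DMSO and 10.6, 7.95, 8.07 and 11.8 in WT EZ. In DKO it stood at 10.6, 11.6, 13.8 and 20.6 CPM in DMSO and 7.61, 5.92, 9.47 and 8.81 in EZ, so that neither genotype's groups overlapped. The difference was −0.97 ± 0.23 in WT (edgeR, adjusted p = 0.0271; past the threshold in 22 of 30 alternatives, 1.78e-04 to 0.103). In DKO it was −0.82 ± 0.23, with adjusted p = 0.0898 and 0.0168 with the block (0.0168 to 0.197 over all alternatives). SLC3A2, the heavy chain with which SLC7A5 and SLC7A11 form working transporters, was at 192 to 408 CPM in WT DMSO and 195 to 352 in WT EZ and did not pass (−0.05 ± 0.26 in WT and 0.07 ± 0.26 in DKO).

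SLC1A4, a carrier of alanine, serine and cysteine, fell with EZ in WT, while its DKO groups overlapped. It stood at 34.4, 34.96, 35.8 and 54.1 CPM in WT DMSO and 29.7, 17.2, 20.2 and 23.1 in WT EZ, without overlap, and at 52.0, 41.1, 44.4 and 73.3 in DKO DMSO and 51.0, 43.7, 46.3 and 54.0 in DKO EZ. The difference was −0.82 ± 0.20 in WT by edgeR (adjusted p = 0.0305; past the threshold in 22 of 30 alternatives, 2.95e-05 to 0.117) and −0.11 ± 0.20 in DKO. The interaction of genotype and drug was 0.71 ± 0.28, with unadjusted p = 0.0216 and adjusted p = 0.9999 (edgeR), so a difference between the genotypes did not pass the threshold. SLC1A5, the glutamine carrier ASCT2, stood at 86.9, 92.7, 91.8 and 154 CPM in WT DMSO and 71.6, 53.05, 49.1 and 70.6 in WT EZ, without overlap. The difference was −0.80 ± 0.25, with adjusted p = 0.105 by edgeR and 0.0168 with the block (1.67e-04 to 0.298 over all alternatives). In DKO, SLC1A5 stood at 81.7, 67.1, 91.2 and 173 CPM in DMSO and 81.4, 69.3, 76.1 and 90.5 in EZ, with overlap.

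SLC7A11, the cystine-glutamate exchanger that feeds glutathione synthesis, had the largest estimate and also the largest scatter of the transporters. It stood at 512, 903, 795 and 1565 CPM in WT DMSO and 646, 359, 369.7 and 301 in WT EZ, where EZ replicate 1 lay above DMSO replicate 1. The difference was −1.17 ± 0.30 (edgeR, adjusted p = 0.0471), and 0.147 with the block (3.21e-07 to 0.184 over all alternatives); it was past the threshold in 10 of 30 alternatives (3.21e-07 to 0.184). In DKO, SLC7A11 stood at 469, 377, 409 and 726 CPM in DMSO and 439, 359.5, 358 and 339 in EZ (−0.41 ± 0.30, adjusted p = 0.646).

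Of the 6 tRNA synthetases, which charge tRNAs with glycine, tryptophan, alanine, serine, asparagine and methionine, 0 passed for the drug in either genotype, with or without the block, in the fits of all 16 libraries. SARS1, GARS1, WARS1 and MARS1 were lower in WT without replicate numbers 1 and 4 of every group, and the median of the 6 was then −0.41. Of the 6, 1, GARS1, had an unadjusted p under 0.05 in WT, 0 had in DKO, and DESeq2 called 0. Their median was −0.31 in WT and −0.07 in DKO, and single estimates ran from −0.51 (WARS1) to −0.10 (AARS1 and NARS1) in WT. GARS1 stood at 444, 495, 453 and 725 CPM in WT DMSO and 510.4, 321, 319 and 399.8 in WT EZ, with WT EZ replicate 1 inside the DMSO range (−0.45 ± 0.19, adjusted p = 0.256 by edgeR). AARS1 stood at 569 to 999 CPM in WT DMSO and 469 to 983 in WT EZ, with overlap. XPOT, which carries tRNAs out of the nucleus, stood at 905, 919.9, 844 and 1344 CPM in WT DMSO and 956, 626, 589 and 740.4 in WT EZ. Its difference was −0.46 ± 0.20, with adjusted p = 0.255 by edgeR and 0.0482 with the block (0.00134 to 0.498 over all alternatives); DKO libraries held 667, 568, 576 and 915 CPM in DMSO and 778, 538, 541 and 679.5 in EZ. XPOT groups overlapped in both genotypes.

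Roles parted most in pair 1, whose EZ libraries were low in mitosis markers in both genotypes. There the median log2 ratio of EZ over DMSO was −0.36 in WT and −0.49 in DKO for the serine and folate enzymes, with 5 and 6 of 6 members lower. For the synthetases it was 0.26 and 0.34, with 1 and 0 of 6 lower, and for the transporters −0.21 and −0.03. Transcription factors stood at 0.70 and 0.56 in the same pair. In pair 4 all of these medians were negative: serine and folate enzymes −0.80 in WT and −0.68 in DKO, transporters −1.12 and −0.94, synthetases −0.70 and −0.45. Over the 8 pairs of both genotypes the median was below 0 in 8 for the serine and folate enzymes, in 8 for the asparagine, phosphoenolpyruvate and transsulfuration enzymes, in 7 for the transporters, in 6 for the synthetases and in 5 for the transcription factors. These medians describe lists of 4 to 7 genes and were not tested against each other.

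**Figure D2:**
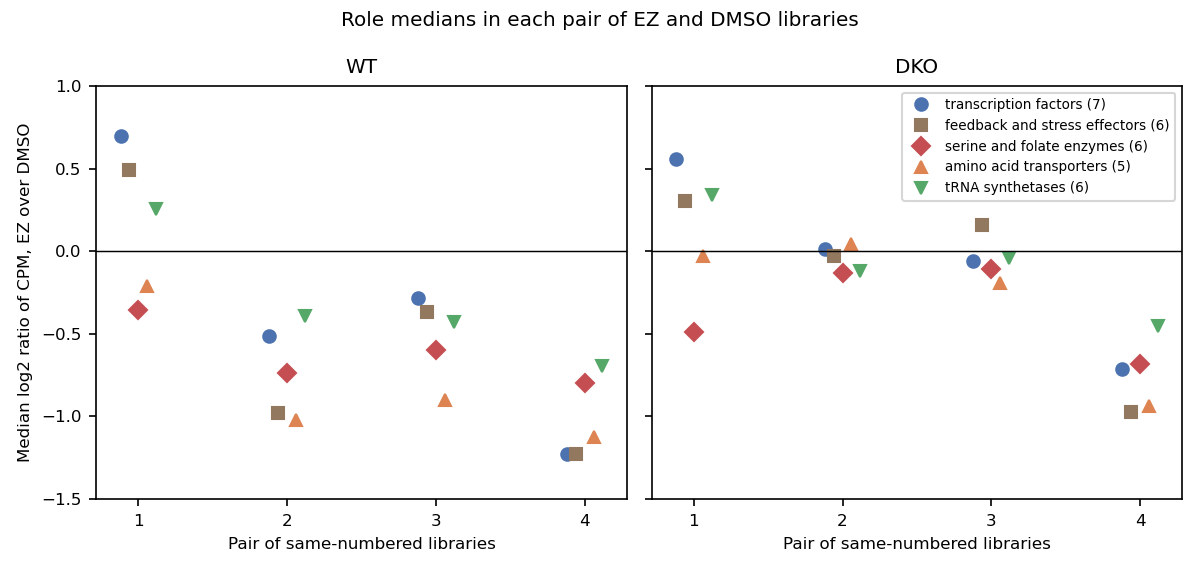
Each symbol is the median log2 ratio of CPM, EZ over DMSO, of a role (number of genes in the legend) in a pair of same-numbered libraries, for WT (left) and DKO (right). The serine and folate enzymes lie below 0 in all 8 pairs, while transcription factors, effectors and synthetases lie above 0 in pair 1 of both genotypes.

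Of the 7 transcription factors, 0 passed for the drug in either genotype in the fit of all 16 libraries and ATF5 passed in WT with the block; the medians were −0.40 in WT and −0.03 in DKO. CEBPG and NUPR1 were lower in WT, and ATF4 in DKO, without replicate numbers 1 and 4 of every group. ATF4 stood at 495, 338, 294 and 814 CPM in WT DMSO, 683, 249, 247 and 414 in WT EZ, 403, 403, 319 and 562 in DKO DMSO and 354, 278, 256 and 316 in DKO EZ. Replicate 4 was highest in both DMSO groups and replicate 1 in both EZ groups, and the groups overlapped. The estimates were −0.29 ± 0.34 in WT and −0.49 ± 0.34 in DKO (edgeR, adjusted p = 0.765 and 0.616). DDIT3, the stress factor CHOP, stood at 26.5, 37.6, 30.9 and 169 CPM in WT DMSO, 72.1, 28.6, 28.1 and 36.0 in WT EZ, 29.9, 29.7, 25.6 and 78.7 in DKO DMSO and 80.3, 30.0, 35.5 and 52.9 in DKO EZ. Replicate 4 of WT DMSO was far above the other 3, and the groups overlapped (−0.68 ± 0.60 in WT and 0.27 ± 0.60 in DKO).

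ATF3, a repressor induced by many stresses, stood at 74.8, 79.0, 63.7 and 236 CPM in WT DMSO, 193, 55.5, 57.4 and 70.0 in WT EZ, 70.9, 53.3, 39.4 and 106 in DKO DMSO and 148, 59.7, 49.2 and 84.8 in DKO EZ. The same libraries were high as for DDIT3, and the estimates were −0.27 ± 0.53 in WT and 0.34 ± 0.53 in DKO. ATF5, a relative of ATF4 linked to the mitochondrial stress response, stood at 32.1, 26.8, 32.4 and 60.5 CPM in WT DMSO and 26.0, 21.7, 21.1 and 26.2 in WT EZ, without overlap. The ATF5 difference was −0.68 ± 0.22, with adjusted p = 0.104 by edgeR and 0.0208 with the block (0.0175 to 0.307 over all alternatives); DKO libraries held 23.2, 17.6, 21.9 and 30.6 CPM in DMSO and 17.8, 15.2, 20.7 and 18.7 in EZ. CEBPB, CEBPG (bZIP partners of ATF4) and the small stress protein gene NUPR1 had estimates of −0.40, −0.61 and −0.26 in WT and of 0.01, −0.03 and −0.40 in DKO, none past the threshold in the fit of all 16 libraries.

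Of the 6 feedback and stress effectors, 0 passed for the drug in either genotype, with or without the block, in the fits of all 16 libraries; 2, CHAC1 and STC2, had an unadjusted p under 0.05 in WT, 0 had in DKO, and DESeq2 called 0. Without the library lowest in mitosis markers of each group, TRIB3 and CHAC1 were lower in WT, and without replicate numbers 1 and 4 TRIB3, STC2 and CHAC1 were. TRIB3, a pseudokinase that restrains ATF4 and DDIT3, had the lowest WT estimate of the 6 (−0.91 ± 0.56), with 128 to 344 CPM in WT DMSO and 57.2 to 208 in WT EZ. CHAC1, which degrades glutathione, was at −0.79 ± 0.32 in WT and −0.46 ± 0.32 in DKO, and the secreted glycoprotein gene STC2 at −0.61 ± 0.27 and −0.32 ± 0.27. PPP1R15A (GADD34), which brings the phosphatase that reverses eIF2 phosphorylation, was the member with an estimate above 0 in WT (0.19 ± 0.39) and had the highest estimate in DKO (0.51 ± 0.39), both within 2 SE of 0. DDIT4, an inhibitor of mTORC1 signalling, was at −0.36 ± 0.33 in WT and −0.37 ± 0.33 in DKO.

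**Figure D3:**
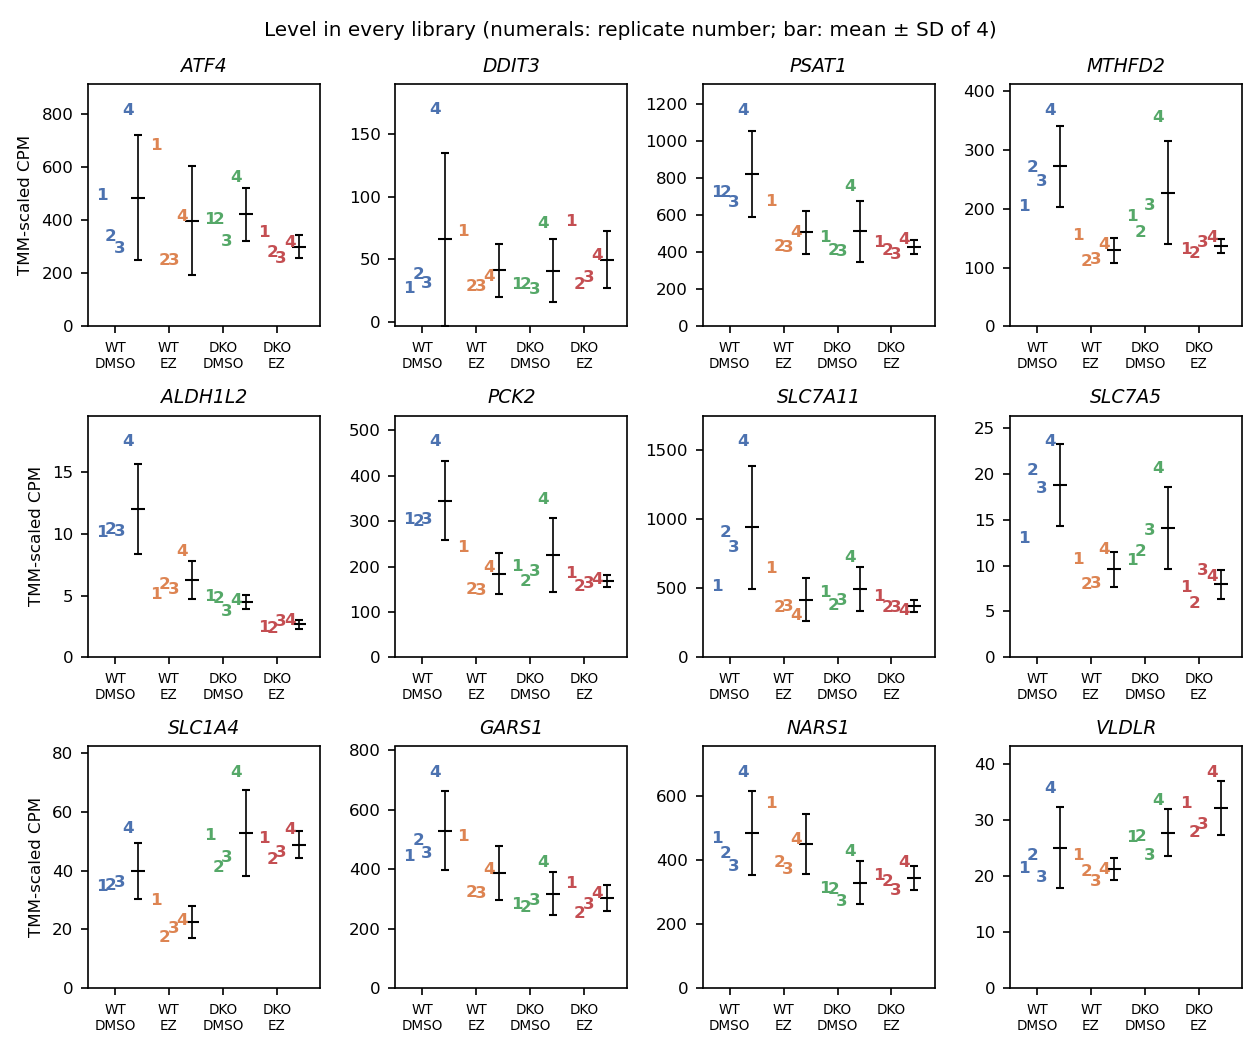
TMM-scaled CPM of 12 members in every library; each numeral is a library, named by its replicate number, and the bar beside each group is the mean ± SD of its 4 libraries (axes differ between genes). ALDH1L2 steps down with drug and with genotype, SLC1A4 is lowest in WT EZ, and numeral 4 is the highest of WT DMSO in every panel.

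Genotype differences were read within each treatment, and these comparisons share the WT and DKO libraries with the drug comparisons above. In DMSO, DKO cells had 6 of 35 members lower and 0 higher than WT (edgeR), where 9.7% of all genes were lower and 8.91% higher. The 6 were ALDH1L2, PSAT1, SLC7A11, ATF5, GARS1 and NARS1, and the median of the 35 was −0.37 against −0.06 for all genes, with 31 of 35 estimates below 0 (55% of all genes). Groups did not overlap for ALDH1L2 and GARS1, both lower (10.9% of all genes were lower without overlap).

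ALDH1L2 had the largest genotype difference, −1.42 ± 0.22 in DMSO, with adjusted p = 1.71e-04 by edgeR, and stayed past the threshold in 29 of 29 alternatives (1.37e-07 to 0.00248). GARS1, at the levels given above for WT, stood at 283, 272, 294 and 424 CPM in DKO DMSO (−0.73 ± 0.19, adjusted p = 0.0126; past in 25 of 29 alternatives, 4.57e-05 to 0.0746). NARS1 stood at 465, 419, 379.6 and 672 CPM in WT DMSO and 311, 308, 271 and 426 in DKO DMSO, where DKO replicate 4 reached the WT range. Its difference was −0.56 ± 0.19 (adjusted p = 0.0449; past in 7 of 29 alternatives, 0.00281 to 0.246).

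The other 3 calls, like that of NARS1, were past the threshold in fewer than 14 of the 29 alternatives. PSAT1 differed by −0.68 ± 0.21 (edgeR, adjusted p = 0.035; past in 13 of 29 alternatives, 2.30e-05 to 0.179). SLC7A11 differed by −0.93 ± 0.30 (adjusted p = 0.0426; past in 9 of 29, 4.25e-07 to 0.198), and ATF5 by −0.70 ± 0.22 (adjusted p = 0.0315; past in 11 of 29, 0.00315 to 0.206). Without WT DMSO replicate 4, the adjusted p of PSAT1 was 0.179, of SLC7A11 0.198, of ATF5 0.206 and of NARS1 0.246, and the members called were ALDH1L2, lower, and SLC1A4, higher. Without DKO DMSO replicate 4, 10 members were called lower; without DKO DMSO replicate 1, 2 or 3, ALDH1L2 alone was called in each fit. Leaving out a library of the EZ groups, which share the fit, also moved the count: to 2 without WT EZ replicate 2, 3 or 4 or DKO EZ replicate 2, 3 or 4, and to 3 without DKO EZ replicate 1. Without WT DMSO replicate 2 it was 3. The share of all genes called in each of these fits is not given, so a change confined to the members is not shown.

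Without replicate number 4 of every group, 5 members were lower in DKO DMSO (6.49% of all genes), namely ALDH1L2, GARS1, PSAT1, ASNS and PCK2. Without the library lowest in mitosis markers of each group, 12 were lower (9.33% of all genes) and 1, SLC1A4, was higher (11.3%). Without replicate numbers 1 and 4, 22 were lower (14.4%) and 2, SLC1A4 and PHGDH, were higher (15.1%). Scaling by library totals moved the median of all genes from −0.06 to 0.14 and left 2 members lower, ALDH1L2 and GARS1, and 2 higher, PHGDH and SLC1A4.

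With EZ in both lines, DKO cells had 2 members higher than WT, SLC1A4 and VLDLR, and 1 lower, ALDH1L2 (edgeR), where 9.29% of all genes were higher and 11.4% lower. The median was −0.11 against −0.01 for all genes, with 21 of 35 estimates below 0 (50.9% of all genes). SLC1A4 was higher by 1.11 ± 0.20, with adjusted p = 7.13e-04, and passed in 29 of 29 alternatives (1.09e-07 to 0.00443); every DKO EZ library lay above every WT EZ library. In DMSO the same difference was 0.40 ± 0.20, with overlap and adjusted p = 0.175. ALDH1L2 differed by −1.22 ± 0.22, with adjusted p = 7.42e-04, in 29 of 29 alternatives (3.14e-05 to 0.00571). VLDLR, a lipoprotein receptor gene that ATF4 can induce, stood at 23.7, 20.9, 19.0 and 21.2 CPM in WT EZ and 32.9, 27.7, 29.2 and 38.5 in DKO EZ, without overlap. In DMSO it stood at 21.4, 23.6, 19.7 and 35.6 CPM in WT and 26.8, 27.0, 23.6 and 33.5 in DKO, with overlap through WT replicate 4. The VLDLR difference in EZ was 0.60 ± 0.17 (edgeR, adjusted p = 0.0186; past in 27 of 29 alternatives, 2.10e-04 to 0.0626). Groups also did not overlap for ATF5 and ASNS, both lower in DKO EZ with adjusted p = 0.242 and 0.238; 13.4% of all genes were lower without overlap and 10.6% higher.

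PHGDH, in contrast to the synthetases, had genotype estimates above 0. It was at 0.32 ± 0.17 in DMSO and 0.43 ± 0.17 in EZ (adjusted p = 0.225 and 0.0863 by edgeR), and it was called higher in EZ in 11 of 29 alternatives (1.22e-05 to 0.245). PSAT1 and PSPH were at −0.68 and −0.34 in DMSO and at −0.25 and −0.27 in EZ. All 6 synthetases had estimates below 0 in DMSO (median −0.39) and 5 of 6 in EZ (median −0.21), 2 and 0 of them past the threshold; in EZ 0 had an unadjusted p under 0.05 and DESeq2 called 0. NARS1 stood at 576, 390.4, 370.2 and 464 CPM in WT EZ and 350.4, 331, 304 and 392 in DKO EZ (−0.39 ± 0.19, adjusted p = 0.159). NUPR1 stood at 70.2, 86.5, 83.0 and 169.8 CPM in WT DMSO, 67.0, 54.7, 52.9 and 118 in DKO DMSO, 114, 57.6, 63.9 and 107 in WT EZ and 73.3, 34.7, 49.4 and 64.0 in DKO EZ, with overlap in each treatment (−0.49 ± 0.34 in DMSO and −0.63 ± 0.34 in EZ). Without the library lowest in mitosis markers of each group, 4 members were higher in DKO EZ, SLC1A4, VLDLR, PHGDH and SLC1A5 (11.2% of all genes), and 1 lower, ALDH1L2 (10.7%). The same members were called without replicate number 4 of every group (9.07% of all genes higher and 7.92% lower). When replicate numbers 1 and 4 were left out, TRIB3 was also higher (5 members, 12.6% of all genes) and NUPR1 also lower (2 members, 12.7%).

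**Figure D4:**
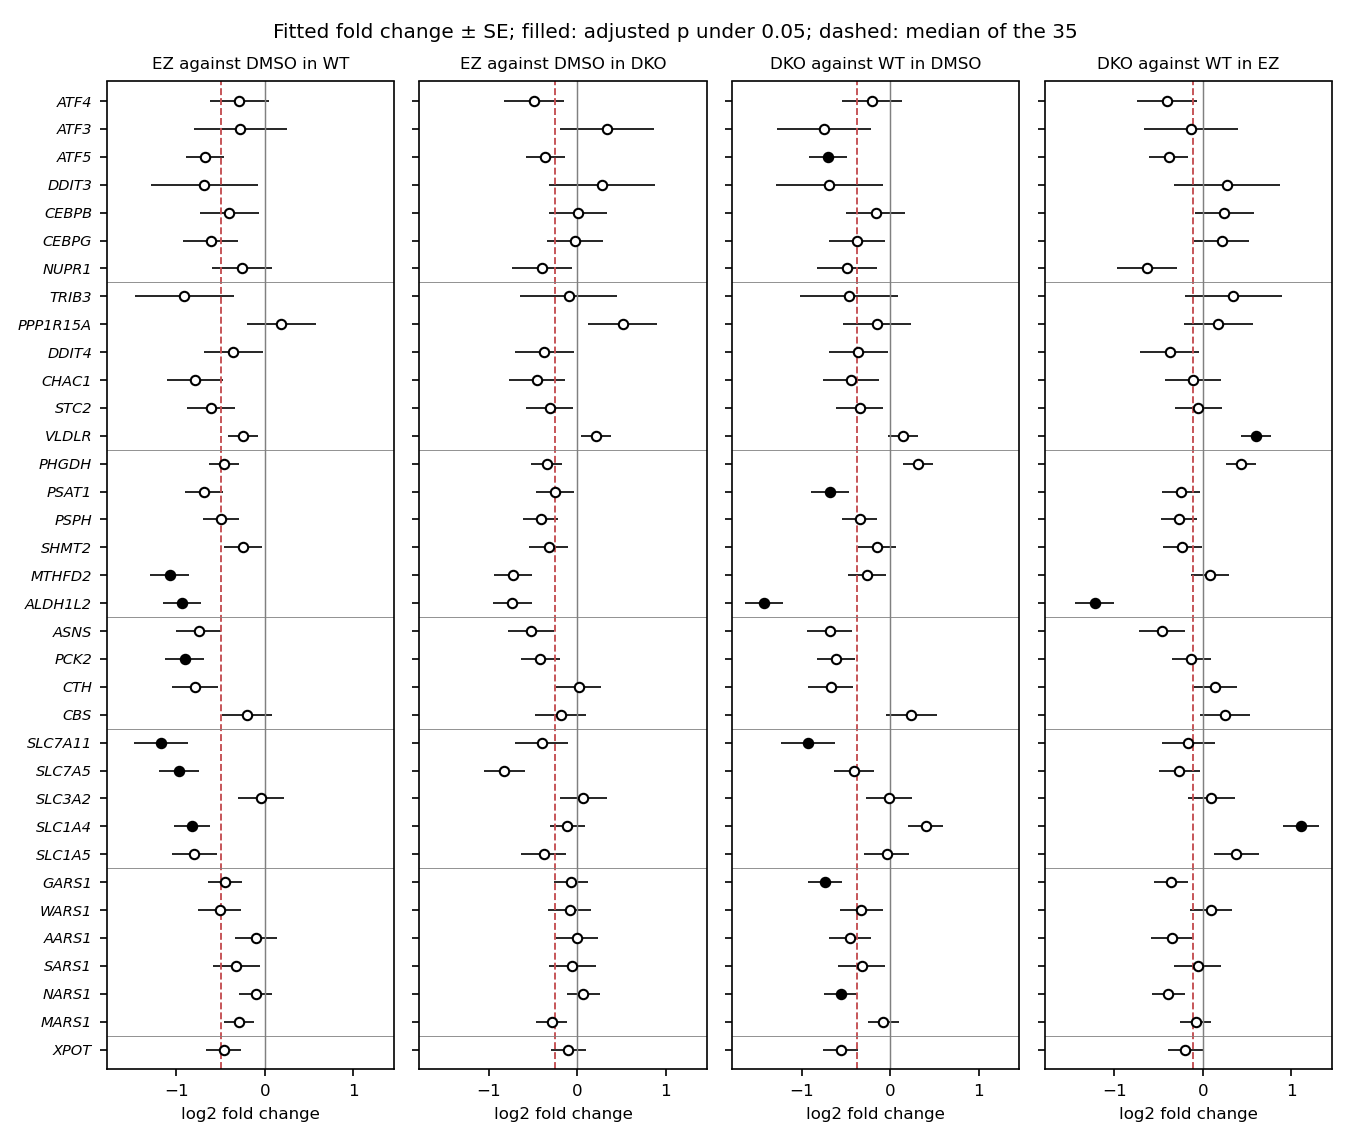
Fitted log2 fold change ± SE of the 35 members in 4 comparisons; filled points have an adjusted p under 0.05 (edgeR) and the dashed line is the median of the 35. For EZ in WT 34 of 35 points lie left of 0, and in the EZ genotype comparison SLC1A4 and ALDH1L2 lie far to either side of the rest.

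In the fit of all 16 libraries the drug response was not shown to differ between the genotypes for any member. The interaction passed for 0 of 35 (0% of all genes, edgeR), 2 members, SLC1A4 and CTH, had an unadjusted p under 0.05, and the block within genotype and DESeq2 also called 0 members (0.179% and 0.00851% of all genes). The median interaction was 0.32 against 0.01 for all genes, with 5 of 35 estimates below 0 (48.4% of all genes); an interaction above 0 means a drug estimate that is lower in WT than in DKO. SEs were wide: for MTHFD2 the interaction was 0.35 ± 0.31, for SLC7A11 0.77 ± 0.43 and for DDIT3 0.96 ± 0.85. Without replicate numbers 1 and 4 of every group, 5 members had an interaction above 0, PCK2, TRIB3, SLC1A4, PSAT1 and SLC7A11 (0.142% of all genes), and without the library lowest in mitosis markers of each group 0 had (0.00454% of all genes).

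Other genes of the pathway were followed by lists, whose genotype counts stand against 9.7% of all genes lower and 8.91% higher in DKO DMSO, and 11.4% lower and 9.29% higher in DKO EZ. Of 18 genes of the eIF2 kinases and eIF2 machinery, 0 passed for the drug in either genotype by edgeR (1 had an unadjusted p under 0.05 in WT and 2 in DKO, and DESeq2 called 0). In DKO, 9 of 18 (9.7% of all genes) were lower in DMSO and 11 (11.4% of all genes) in EZ, among them OMA1 and DELE1, which relay mitochondrial stress to eIF2. OMA1 stood at 68.3 CPM ± 7.70 in WT and 40.6 ± 1.99 in DKO in DMSO (SD, n = 4; −0.75 ± 0.11, edgeR adjusted p = 8.60e-05). DELE1 stood at 77.1 CPM ± 7.58 in WT and 43.7 ± 3.94 in DKO in EZ (−0.82 ± 0.11, adjusted p = 5.01e-05).

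The 14 other cytosolic tRNA synthetases also gave 0 calls for the drug by edgeR (5 had an unadjusted p under 0.05 in WT and 2 in DKO), while in DKO 10 were lower in DMSO (9.7% of all genes) and 8 in EZ (11.4%). DESeq2 called 0 for the drug as well. EPRS1, which charges glutamate and proline, stood at 1107 CPM ± 172 in WT DMSO and 595 ± 44.3 in DKO DMSO (−0.89 ± 0.13, adjusted p = 1.47e-04). LARS1, for leucine, differed by −0.72 ± 0.12 in DMSO and −0.81 ± 0.12 in EZ. Of 17 mitochondrial synthetases, 0 passed for the drug (2 with an unadjusted p under 0.05 in each genotype, and 0 by DESeq2), and 2 were lower in DKO DMSO, near the 9.7% of all genes, and 6 in DKO EZ (11.4% of all genes), with EARS2 at −0.66 ± 0.09 and −0.77 ± 0.09.

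Of 20 further ATF4 targets, 2 fell with EZ in WT, both at low levels (1.07% of all genes were lower). Without replicate number 4 of every group 0 did (0.878%). Without replicate numbers 1 and 4, 6 were lower (3.06% of all genes) and 2 higher (6.53%). Without the library lowest in mitosis markers of each group, 1 was lower (1.6%) and 2 higher (5.43%). The hormone gene FGF21 went from 1.11 CPM ± 1.10 to 0.151 ± 0.0964 (edgeR, adjusted p = 0.0382) and the activin subunit gene INHBE from 0.797 ± 0.504 to 0.205 ± 0.127 (adjusted p = 0.0491). In DKO 0 passed for the drug by edgeR, 3 had an unadjusted p under 0.05 and DESeq2 called 0. Between genotypes 1 was higher and 3 lower in DMSO, and 2 higher and 4 lower in EZ. In the fit of all 16 libraries the shares of all genes were 8.91% higher and 9.7% lower in DMSO, and 9.29% and 11.4% in EZ. The counts in that fit alone are no result about the list. Without replicate numbers 1 and 4, 11 were lower (14.4% of all genes) and 2 higher (15.1%) in DMSO, and 7 (12.7%) and 4 (12.6%) in EZ. Without the library lowest in mitosis markers of each group, these were 7 (9.33%) and 2 (11.3%) in DMSO, and 7 (10.7%) and 3 (11.2%) in EZ. An excess in the list was not tested. PYCR1 of proline synthesis differed by −0.69 ± 0.16 in DMSO and −0.97 ± 0.16 in EZ.

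Among 15 other amino acid transporter genes, 14 of them tested, the drug moved SLC36A1 up in both genotypes and SLC43A1 down in both. SLC36A1, a lysosomal and plasma membrane amino acid-proton carrier, went from 28.3 CPM ± 0.987 to 63.8 ± 12.7 in WT (edgeR, 1.17 ± 0.16, adjusted p = 4.98e-04) and from 35.5 ± 2.35 to 58.2 ± 12.5 in DKO (0.71 ± 0.15, adjusted p = 0.0288). SLC43A1, the neutral amino acid carrier LAT3, went from 70.6 CPM ± 4.70 to 41.5 ± 6.34 in WT (−0.77 ± 0.14, adjusted p = 0.00599) and from 52.5 ± 9.02 to 35.1 ± 4.90 in DKO (−0.58 ± 0.14, adjusted p = 0.0483). The arginine and lysine carrier gene SLC7A1 fell in WT (−0.44 ± 0.12, adjusted p = 0.0498). Between genotypes 3 of the 14 were lower in DKO DMSO (9.7% of all genes) and 2 in DKO EZ (11.4%).

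Of 19 other serine, glycine and folate genes, 1 passed for the drug in WT, ALDH1L1, the cytosolic counterpart of ALDH1L2, which rose from 0.908 CPM ± 0.399 to 3.81 ± 2.04 (edgeR, 2.04 ± 0.44, adjusted p = 0.0147). The 2 paralogues thus moved in opposite directions in WT, both at low levels. In DKO 0 passed by edgeR, 5 had an unadjusted p under 0.05 and DESeq2 called 1 higher and 1 lower. Between genotypes 3 were lower in DKO DMSO (9.7% of all genes) and 6 in DKO EZ (11.4%), where 1, MTHFD2L, was higher (9.29%). Of 16 ER chaperones and targets of ATF6 or XBP1, 0 passed for the drug (1 with an unadjusted p under 0.05 in WT and 2 in DKO, and 0 by DESeq2), and 4 were lower in DKO in each treatment (9.7% of all genes in DMSO and 11.4% in EZ), with HSPA5, the chaperone BiP, at −0.74 ± 0.22 in DMSO (adjusted p = 0.0235) and HSP90B1 at −0.63 ± 0.15 in EZ (adjusted p = 0.00725).

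With the replicate block within genotype, the drug moved more genes of these lists, as it did of all genes (7.67% higher and 4.44% lower in WT, 4.63% higher and 3.12% lower in DKO; edgeR). The eIF2 list had 1 gene higher in each genotype and 0 lower. Of the further ATF4 targets, 2 were lower in each genotype. Of the other cytosolic synthetases, 1 was higher and 3 lower in WT and 1 lower in DKO, and of the mitochondrial ones 1 was higher in WT and 1 lower in DKO. The other serine, glycine and folate genes had 3 higher and 2 lower in WT and 2 higher and 1 lower in DKO. Among the other transporters, 1 was higher and 4 lower in WT, and 1 was higher and 1 lower in DKO. The ER list gave 0 in both genotypes. Without replicate number 4 of every group, 7.92% of all genes were lower in DKO EZ. Fewer genes were then lower for the eIF2 list (4), the other cytosolic synthetases (7) and the mitochondrial synthetases (3). The same held for the other serine, glycine and folate genes (2), the other transporters (0) and the ER list (1). The further ATF4 targets stayed at 4. In DKO DMSO (6.49% of all genes lower) the counts of that fit were 5 for the eIF2 list and 7 for the other cytosolic synthetases. They were 1 for the mitochondrial synthetases, 2 for the other serine, glycine and folate genes and 2 for the other transporters. The ER list and the further ATF4 targets each had 3.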

How the data were processed

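Total RNA of 16 LNCaP libraries was sequenced after rRNA reduction, per the labels' protocols. The authors deposited raw counts per Ensembl gene for each library. The submitters' processing notes list STAR 2.7.3a and GRCh38 but give neither a role. How reads were assigned to genes, with which annotation and whether by strand, is not given in the sources used here. Identifiers were matched to symbols and to GENCODE 29 exons.

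Genes were filtered with filterByExpr (minimum count 10, minimum total 15) and scaled by TMM, and 1 quasi-likelihood model with 4 group means was fitted over all 16 libraries (edgeR 4.0.16, limma 3.58.1, R 4.3.3), with Benjamini-Hochberg adjustment over all genes tested and a threshold of 0.05. The fit was tested on simulated counts drawn gene by gene, without pairs or shifts shared by the genes of a library. That test therefore does not cover libraries in which members move together. DESeq2 1.42.0, other scalings, no filter, fits of the compared groups alone, a term for the libraries high in RN7SL1, replicate blocks and left-out libraries were alternatives. The members and lists were chosen with earlier results of these data known. All 35 members are named; values in every library are given for members past the threshold with or without a block and for ATF4, DDIT3, ATF3 and ASNS, and of the other lists up to 3 genes per direction.

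Pairing was checked from deviations from group means: same-numbered EZ and DMSO libraries correlated at r = 0.326 to 0.664 in 8 of 8 pairs, and numbers across genotypes at −0.0668 to 0.674, with 6 of 8 over 0.1. In 7 of the 8 drug pairs the same number was the best match. WT DMSO replicate 2 matched another WT EZ library better (r = 0.511 against 0.326). In the block within genotype the numbers were therefore used as pairs within a genotype and not between genotypes. The main fit holds no pairs, although 8 of 8 drug pairs exceeded the correlation of 0.1 required for pairing. Drug calls with pairs are therefore given beside those without. Total counts per library, 11823438 to 47678648, set the precision of weak genes.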

Additional observations from a re-analysis of the deposited data

Results flagged for a closer look

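In 27 of 140 sets of 4 libraries (35 members in 4 groups) the highest library lay far from the other 3 by Dixon's criterion. Chance meets it in about 1 in 20 sets of normally distributed values. It was applied to CPM without a log, whose distribution was not checked, so the rate for these data is not known. Members vary together, so these are not 27 separate events. All values are CPM. WT DMSO replicate 4 accounted for 14: among factors and effectors, ATF3 at 236.5, ATF5 at 60.5, DDIT3 at 169.1, NUPR1 at 169.8 and TRIB3 at 343.6. Among metabolic enzymes in that library were PSAT1 at 1166, ALDH1L2 at 17.48 and PCK2 at 475.6, and among transporters SLC3A2 at 408, SLC1A4 at 54.15 and SLC1A5 at 153.7. WARS1 at 396.7, SARS1 at 474.4 and XPOT at 1344 completed the 14.

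DKO DMSO replicate 4 accounted for 8: DDIT3 at 78.67, CEBPG at 248, PHGDH at 1067, PSPH at 114.2, SHMT2 at 507.8, SLC3A2 at 389.9, GARS1 at 423.7 and MARS1 at 464.7. WT EZ replicate 1 stood apart for ATF3 at 192.9 and TRIB3 at 207.5, and DKO EZ replicate 1 for TRIB3 at 280.7 and CTH at 28.26. WT EZ replicate 4 stood apart for PSPH at 90.97. Apart from the last, these are the libraries lowest in mitosis markers in their groups, and the part of that was not tested.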

How the results depend on the processing

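Over 33 results for single members, no direction reversed under any alternative. These 33 were chosen as past the threshold with or without a block, which makes a steady direction likely in advance. Role medians outside that choice did change sign. For EZ in DKO, that of the transcription factors was −0.03, and 0.29 without replicate number 4 of every group. That of the feedback and stress effectors was −0.21 and 0.09. For EZ in WT, where 6 members were called, upper-quartile scaling and library totals each gave 10, the fit of the compared groups alone 1, the fit without replicate numbers 1 and 4 of every group 23 and that without the libraries lowest in mitosis markers 10; leaving out 1 library gave 1 to 8. For EZ in DKO, where 0 were called, upper-quartile scaling and library totals gave 2, DESeq2 1, a term for the libraries high in RN7SL1 1 and the fit without replicate numbers 1 and 4 gave 3; leaving out 1 library gave 0 to 0. For DKO against WT in DMSO, where 6 were called, no filter and the compared groups alone gave 2, the fit without replicate numbers 1 and 4 gave 24 and that without the libraries lowest in mitosis markers 13; leaving out 1 library gave 1 to 10. For DKO against WT in EZ, where 3 were called, library totals, no replicate number 4, no replicate number 4 in the DMSO groups and no libraries lowest in mitosis markers each gave 5, and no replicate numbers 1 and 4 gave 7; leaving out 1 library gave 2 to 4. The interaction gave 5 without replicate numbers 1 and 4, against 0. For DKO against WT in DMSO, 18.6% of all genes were called in the main fit. That share was 29.4% without replicate numbers 1 and 4, and 20.6% without the libraries lowest in mitosis markers. Shares of all genes are not given for other scalings, no filter, the compared groups alone or 1 library left out. In those fits, changes in the members cannot be told apart from changes over all genes. The cause of the changes in these counts was not tested.

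With a replicate block over all groups, the calls for EZ were 12 in WT (7.9% of all genes) and 3 in DKO (5.06%). Those for DKO against WT were 10 in DMSO (26.9% of all genes) and 6 in EZ (29.4%). With the replicate block within genotype the calls for the drug were 12 in WT (12.1% of all genes) and 2 in DKO (7.75%). Across genotypes the samples share only a number. Over single members, 749 alternative values kept direction and side of the threshold, 134 lost the threshold and 90 passed it. Library totals moved the median of all genes from −0.03 to −0.10 for EZ in WT, from −0.06 to 0.14 for DKO against WT in DMSO and from −0.01 to 0.23 in EZ.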
